A study of Homo sapiens with 6 samples.

Results

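The 8 genes described here encode proteases, receptors and inhibitors that act at the cell surface on plasminogen and at the start of coagulation. They are PLAT, PLAU, PLAUR, SERPINE2, SERPINB2, F3, TFPI and TFPI2, taken by symbol from a table of 21173 genes, and each had a row. RNA was sequenced from TPC1, an established line of papillary thyroid carcinoma cells. The 3 tested libraries came from TPC1 cells made to overexpress the CP2-family transcription factor TFCP2L1, and the 3 control libraries from TPC1 cells with a vector, labelled wild type. The labels do not give the construct's promoter, the culture time or whether the cells are a clone, nor whether the replicates were grown as separate cultures. The p-values therefore speak to the spread among these libraries alone, and that spread may be technical. Library totals were 38213520 to 38987434 reads in TFCP2L1 cells and 37928516 to 38249193 reads in vector cells. TFCP2L1 had 13578, 13885 and 12333 reads in the cells overexpressing it, against 0, 0 and 1 read in vector cells.

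Plasminogen is a circulating zymogen that becomes plasmin, a protease of fibrin and of matrix proteins, when tissue-type activator (PLAT) or urokinase (PLAU) cuts it. Urokinase works largely while bound to its membrane receptor PLAUR, and serpins trap the activators as inactive complexes. Coagulation starts when tissue factor (F3) on a membrane binds factor VII, and TFPI shuts that complex down. TFPI2 has the same Kunitz-type inhibitor domains but acts mainly on plasmin and trypsin-like proteases of the matrix. Thyroid carcinomas are known to carry more urokinase and its receptor than normal thyroid.

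Promoters of 7 of the 8 genes were read from RefSeq on GRCh38.p14, with 9 starts in all. Each window ran from 250 bases before to 50 bases after the transcript start. The 4 shown are those of a gene that fell strongly (TFPI2), the most abundant gene (PLAU, the downstream of its 2 starts), and F3, the target of TFPI, with the receptor PLAUR, which had opposite signs of fold change. Capitals mark matches, on either strand, to TGANTCA (the AP-1 element), TATAAA (the TATA box), GGGCGG (the GC box) and CCAG followed after any 6 bases by CCAG (a pair of half-sites of the kind CP2 factors bind). No 2 motif types overlapped in these windows.
TFPI2, minus strand, chr7:93890704-93891003: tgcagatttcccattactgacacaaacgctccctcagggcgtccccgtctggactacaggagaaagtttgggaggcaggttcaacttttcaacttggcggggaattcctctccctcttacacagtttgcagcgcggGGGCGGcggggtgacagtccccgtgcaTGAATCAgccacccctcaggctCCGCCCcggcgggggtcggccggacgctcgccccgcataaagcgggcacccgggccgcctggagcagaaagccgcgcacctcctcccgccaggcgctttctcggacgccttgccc
PLAU, plus strand, chr10:73910882-73911181: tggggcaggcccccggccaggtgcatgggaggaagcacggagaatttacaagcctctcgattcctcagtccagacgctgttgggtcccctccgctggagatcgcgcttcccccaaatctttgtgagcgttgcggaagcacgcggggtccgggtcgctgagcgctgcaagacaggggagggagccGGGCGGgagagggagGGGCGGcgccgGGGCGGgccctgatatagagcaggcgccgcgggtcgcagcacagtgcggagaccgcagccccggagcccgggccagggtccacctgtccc
F3, minus strand, chr1:94541710-94542009: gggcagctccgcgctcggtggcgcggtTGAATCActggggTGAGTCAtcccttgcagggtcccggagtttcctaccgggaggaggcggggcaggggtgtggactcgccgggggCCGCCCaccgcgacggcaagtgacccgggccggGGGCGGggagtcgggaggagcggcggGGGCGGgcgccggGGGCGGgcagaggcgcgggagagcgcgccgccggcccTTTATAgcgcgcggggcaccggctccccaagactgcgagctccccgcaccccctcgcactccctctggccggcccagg
PLAUR, minus strand, chr19:43670120-43670419: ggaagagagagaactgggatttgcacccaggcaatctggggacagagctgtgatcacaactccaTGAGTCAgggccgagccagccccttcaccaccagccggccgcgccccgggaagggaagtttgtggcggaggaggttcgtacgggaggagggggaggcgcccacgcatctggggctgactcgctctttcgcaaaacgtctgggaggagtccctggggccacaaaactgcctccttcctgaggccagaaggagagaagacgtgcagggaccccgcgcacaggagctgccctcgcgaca

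The AP-1 element occurred in the windows of F3, TFPI2, PLAUR and SERPINB2, and in 7.71% of the 35116 promoters in the table. F3 held it at both -223 to -217 and -210 to -204 from the start, TFPI2 at -87 to -81 and PLAUR at -186 to -180. The GC box occurred in the windows of F3 (4 matches), PLAU (3 matches, at the downstream start), TFPI2 and SERPINE2, and in 45.0% of all promoters. The TATA box was found for F3 and SERPINB2 and in 11.5% of all promoters. The CP2 half-site pair was found in 0 of the 9 windows and in 4.04% of all promoters. The 9 windows do not include PLAT, which fell about as much as TFPI2. PLAT was left out, which does not mean that RefSeq lacks a promoter for it. Nothing is therefore said here of motifs at the PLAT promoter. GC content of the shown windows was 65.3% for TFPI2, 70.0% for PLAU, 77.3% for F3 and 64.0% for PLAUR. The median over all promoters was 58.7%. Of the windows not shown, the upstream start of PLAU had 48.7% and 0 matches to any of the motifs. The others had 39.3% for TFPI, 39.0% for SERPINB2, and 54.0% and 73.7% for the SERPINE2 starts. A match describes letters in a window and was not measured as a binding site here.

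Overexpression was set against the vector to ask which transcripts change with TFCP2L1. Of the 8 genes, all of which passed the filter on low counts, 4 fell and 0 rose by edgeR's quasi-likelihood test at a Benjamini-Hochberg adjusted p under 0.05. TFPI2 and PLAT fell most, and TFPI and PLAU by less. Over all 14431 tested genes, 7.04% were called lower and 4.68% higher. At an unadjusted p under 0.05, 5 of the 8 genes were lower and 1 higher, against 13.6% lower and 11.9% higher over all tested genes, and DESeq2 and limma-voom also called 4 lower and 0 higher. The median log2 fold change of TFCP2L1 over vector cells was -0.39 over the 8 genes, against 0.00 over all tested genes. For 7 of the 8 genes the TFCP2L1 and vector libraries were fully apart, 6 lower and 1 higher in TFCP2L1 cells. That held for 30.0% of tested genes, 15.6% lower and 14.4% higher. The background itself depended on single vector libraries: without vector replicate 1, 294 genes were called higher and 675 lower, and without vector replicate 3, 313 higher and 654 lower, against 676 and 1016 with all libraries.

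**Figure D1:**
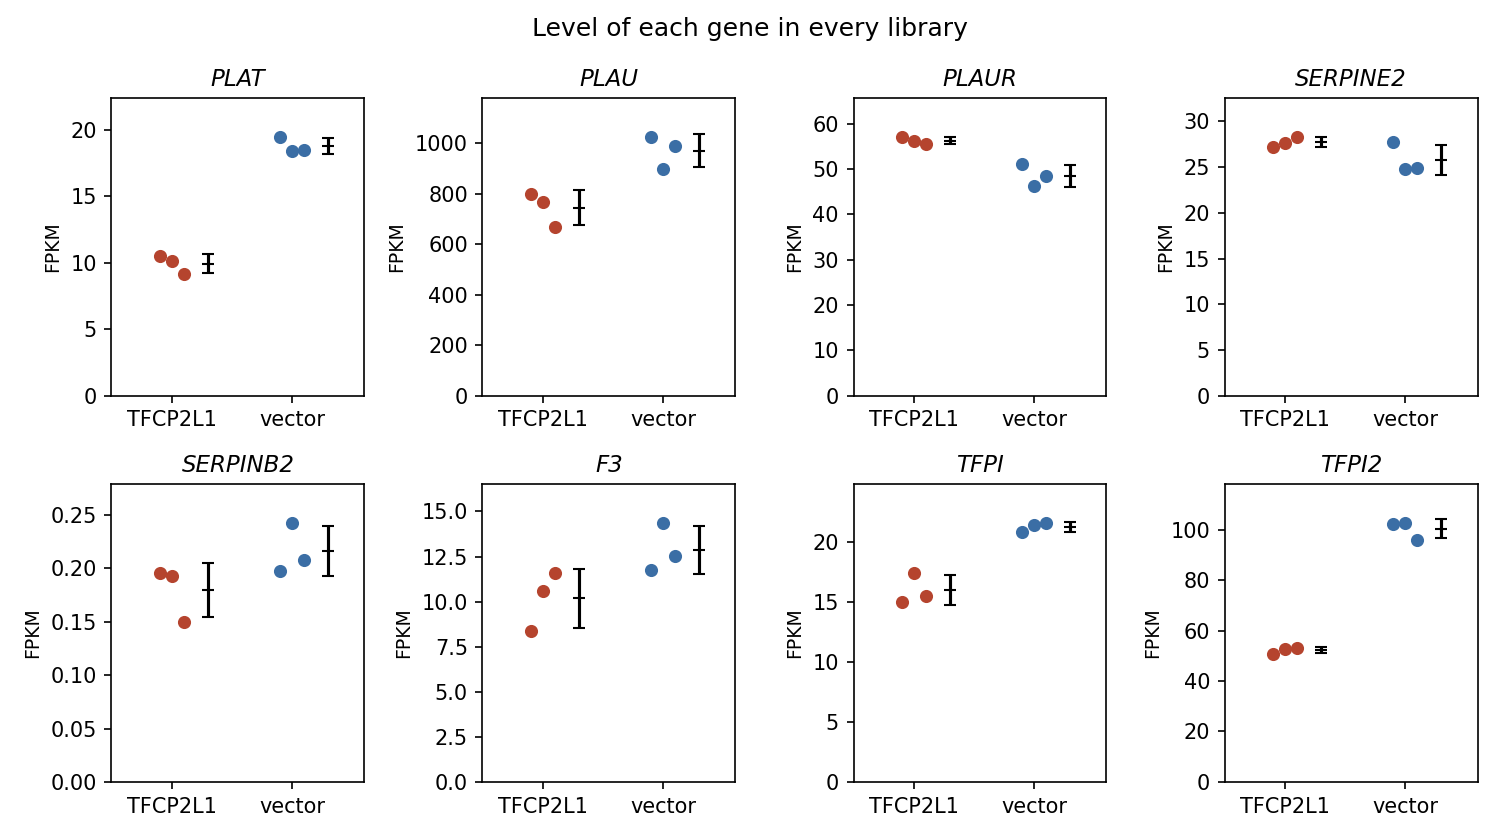
Level of each gene (FPKM, linear axis from 0) in the 3 TFCP2L1 libraries (left, red) and the 3 vector libraries (right, blue); bars beside the points are the mean ± SD (n = 3). The groups are apart for every gene but SERPINE2, and the gap is widest relative to the spread for PLAT and TFPI2.

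Of the activators, PLAT, tissue-type plasminogen activator (ENSG00000104368.17; GRCh38 chromosome 8, 42175233 to 42207724, minus strand), fell. Its level in FPKM, reads scaled to gene length and library total, was 10.5, 10.1 and 9.18 FPKM in TFCP2L1 cells, against 19.5, 18.4 and 18.5 FPKM in vector cells. Every TFCP2L1 library was thus well below every vector library. The level fell by 48.1%, a log2 fold change of -0.95 ± 0.09 (SE), with an edgeR adjusted p of 1.72e-06. It was called under each of the 15 alternative settings, at -0.98 to -0.86.

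PLAU, urokinase (ENSG00000122861.15; chromosome 10, 73909177 to 73917497, plus strand), was the most abundant of the 8 in both groups and fell. It had 799, 767 and 667 FPKM in TFCP2L1 cells, against 1026, 898 and 991 FPKM in vector cells. Replicate 3 was the lowest TFCP2L1 library and replicate 2 the lowest vector library, and the groups did not overlap. By mean FPKM it ranked 57 in TFCP2L1 cells and 42 in vector cells among all genes in the table, and it took 0.185% to 0.222% of all reads in TFCP2L1 libraries and 0.249% to 0.284% in vector libraries. On the log2 scale this was -0.41 ± 0.08 (SE; edgeR adjusted p = 0.00406). The call was lost in limma on log2(FPKM + 1) (adjusted p = 0.0580) and on log2(FPKM + 0.1) (adjusted p = 0.0546). C10orf55, on the opposite strand, shares 31.1% of the exon bases of PLAU. C10orf55 had 238 to 284 reads in TFCP2L1 libraries and 251 to 272 in vector libraries, against 70696 to 84926 and 95222 to 107886 for PLAU. Whether counting used strand is not stated, so reads from the shared bases cannot be assigned, and the part of this overlap in the PLAU values was not tested.

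PLAUR, the urokinase receptor (ENSG00000011422.11; chromosome 19, 43646095 to 43670547, minus strand), was not called. It had 57.1, 56.2 and 55.5 FPKM in TFCP2L1 cells, against 51.0, 46.2 and 48.4 FPKM in vector cells. All 3 TFCP2L1 libraries lay above all 3 vector libraries, by a small margin. Its log2 fold change was 0.19 ± 0.07 (SE; edgeR adjusted p = 0.106), and none of the 15 alternatives called it, with adjusted p from 0.0639 to 0.328. The interval of 2 SE to either side ran from 0.04 to 0.33.

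The serpins among the 8 were not called. SERPINE2, protease nexin 1, an inhibitor of thrombin, urokinase and tissue-type activator (ENSG00000135919.12; chromosome 2, 223975112 to 224039319, minus strand), had 27.2, 27.7 and 28.3 FPKM in TFCP2L1 cells, against 27.7, 24.8 and 24.96 FPKM in vector cells. It was the only gene of the 8 whose groups overlapped, through vector replicate 1. Its log2 fold change was 0.08 ± 0.08 (SE; edgeR adjusted p = 0.599), and 2 SE to either side spanned -0.08 to 0.23.

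SERPINB2, plasminogen activator inhibitor 2, an inhibitor found largely inside cells (ENSG00000197632.8; chromosome 18, 63871692 to 63903890, plus strand), was near the limit of detection. It had 17, 17 and 13 reads in TFCP2L1 libraries, against 17, 21 and 18 reads in vector libraries. The read counts touched at 17, and the groups parted only after scaling to library size. The log2 fold change of -0.29 ± 0.46 (SE; edgeR adjusted p = 0.749) leaves -1.22 to 0.63 within 2 SE, an interval that includes a 2-fold fall. The neighbouring gene SERPINB10, which covers 19.9% of its exon bases on the same strand, was not analysed here.

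F3, tissue factor (ENSG00000117525.13; chromosome 1, 94529225 to 94541800, minus strand), had 8.37, 10.6 and 11.6 FPKM in TFCP2L1 cells, against 11.8, 14.4 and 12.5 FPKM in vector cells. The highest TFCP2L1 library, replicate 3, lay just below the lowest vector library, replicate 1. Its relative spread among TFCP2L1 libraries, a coefficient of variation of 16.2%, was the widest of the 8 genes in that group. With a log2 fold change of -0.37 ± 0.12 (SE; edgeR adjusted p = 0.0692), F3 was not called. It was called lower without TFCP2L1 replicate 3 (-0.47, adjusted p = 0.00957) and with no filter on low counts (adjusted p = 0.0301), over a range of adjusted p up to 0.259.

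TFPI, the inhibitor of the tissue factor complex (ENSG00000003436.15; chromosome 2, 187464230 to 187565760, minus strand), fell. It had 15.0, 17.4 and 15.5 FPKM in TFCP2L1 cells, against 20.8, 21.5 and 21.6 FPKM in vector cells. The vector libraries lay close together, with a coefficient of variation of 1.98%, and all were above the TFCP2L1 libraries. TFPI fell by 26.3%, a log2 fold change of -0.44 ± 0.08 (SE), with an edgeR adjusted p of 0.00158. The counts are per gene, so the secreted and the membrane-anchored forms of TFPI, which arise by splicing, cannot be told apart.

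TFPI2 (ENSG00000105825.12; chromosome 7, 93885396 to 93890991, minus strand), a secreted Kunitz inhibitor held in the matrix, fell about as much as PLAT. It had 50.8, 52.7 and 53.1 FPKM in TFCP2L1 cells, against 102, 103 and 96.1 FPKM in vector cells. The spread within each group was a few percent of the mean, with coefficients of variation of 2.38% in TFCP2L1 cells and 3.70% in vector cells. TFPI2 fell by 48.9%, a log2 fold change of -0.97 ± 0.07 (SE), with an edgeR adjusted p of 1.96e-07. The call held under all 15 alternatives. Its fold change and that of PLAT lay within 1 SE of each other, and PLAT was the lower of the pair without TFCP2L1 replicate 1 or vector replicate 2. Genes on the opposite strand, GNGT1 among them, share at most 2.95% of its exon bases each.

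**Figure D2:**
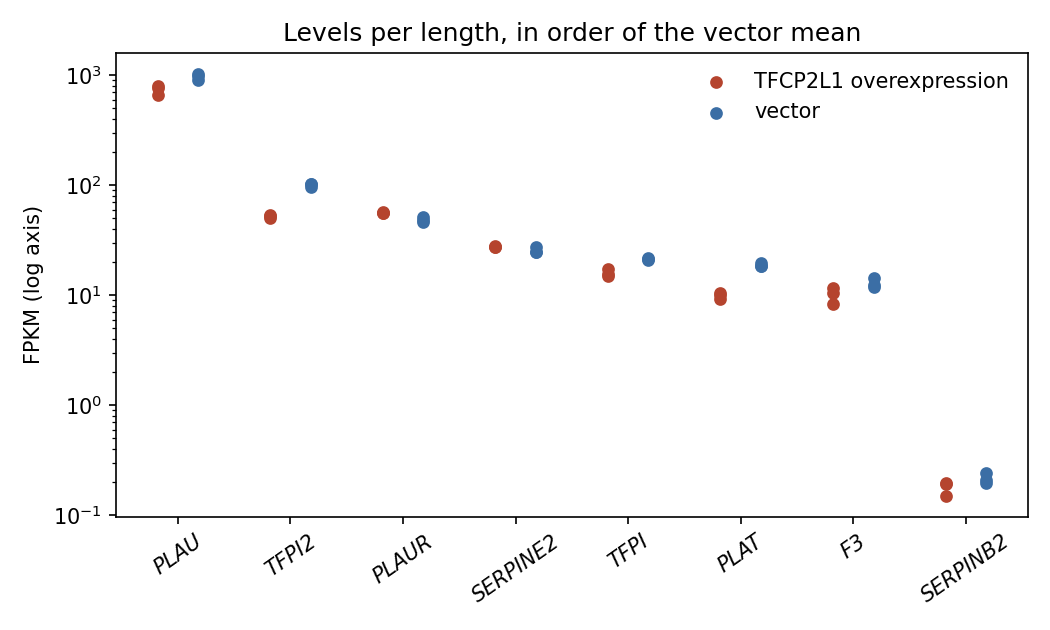
FPKM on a log axis in each TFCP2L1 library (red, left of each pair) and each vector library (blue), with the genes in order of their vector mean. PLAU stands at 667 to 1026 FPKM and SERPINB2 at 0.150 to 0.242 FPKM, while the other 6 lie between 8.37 and 103 FPKM.

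Set in order by mean FPKM, the levels in TFCP2L1 cells ran PLAU, PLAUR, TFPI2, SERPINE2, TFPI, F3, PLAT and SERPINB2. In vector cells they ran PLAU, TFPI2, PLAUR, SERPINE2, TFPI, PLAT, F3 and SERPINB2. TFPI2 and PLAUR thus stood in opposite order, as did PLAT and F3. In TFCP2L1 cells F3, at 10.2 ± 1.65 FPKM, and PLAT, at 9.94 ± 0.688 FPKM (SD, n = 3), overlapped, and the other 6 neighbouring pairs did not. In vector cells 0 of the 7 neighbouring pairs overlapped. The order rests on the gene lengths behind the deposited FPKM values, 2578 bp for SERPINE2 and 5276 bp for TFPI. With the length of all GENCODE v29 exons, 8891 and 11714 bp, SERPINE2 moved to the fifth place in TFCP2L1 cells and to the seventh in vector cells. With those lengths TFPI2 stood above PLAUR, and F3 above PLAT, in both groups.

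Ratios of FPKM values within a library show how the balance between transcripts differed, and the pairs were chosen after their values had been seen. PLAU over PLAT was 76.0, 75.9 and 72.7 in TFCP2L1 libraries, against 52.7, 48.8 and 53.5 in vector libraries, so urokinase took a larger part of the activator transcripts in TFCP2L1 cells. PLAU over PLAUR was 14.0, 13.6 and 12.03 in TFCP2L1 libraries, against 20.1, 19.4 and 20.5 in vector libraries. TFPI2 over TFPI was 3.38, 3.02 and 3.42 in TFCP2L1 libraries, against 4.92, 4.78 and 4.45 in vector libraries. The groups did not overlap for these 3 ratios. TFPI over F3, the inhibitor set against its target, averaged 1.59 ± 0.232 in TFCP2L1 cells and 1.66 ± 0.147 in vector cells (SD, n = 3), and the groups overlapped.

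**Figure D3:**
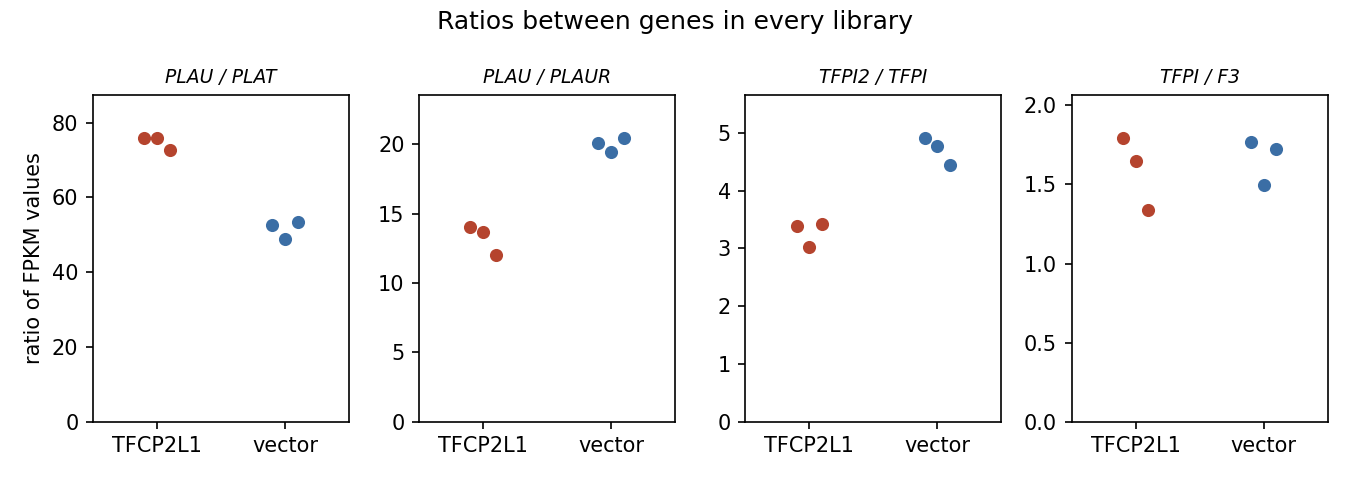
Ratios of FPKM values between genes (linear axes from 0) in each TFCP2L1 library (left, red) and each vector library (right, blue). The groups are apart for PLAU over PLAT, PLAU over PLAUR and TFPI2 over TFPI, and overlap for TFPI over F3.

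Other genes of plasminogen activation were read from a list of 23, of which 21 had a row and 16 could be tested. Of these 4 fell and 0 rose, with a median log2 fold change of -0.13 (5 lower and 1 higher at an unadjusted p under 0.05; DESeq2 and limma-voom called 4 lower and 0 higher). Over all tested genes 7.04% were lower and 4.68% higher by edgeR, and 13.6% lower and 11.9% higher at the unadjusted p. Plasminogen itself was barely detected, with 3, 0 and 0 PLG reads in TFCP2L1 libraries and 0 in each vector library.

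Surface proteins that gather or clear the activators differed among themselves. ANXA2, a membrane-binding protein that docks plasminogen and tissue-type activator, was at 423 ± 8.37 FPKM in TFCP2L1 cells and 416 ± 12.01 FPKM in vector cells (SD, n = 3; edgeR adjusted p = 0.979). Its partner S100A10 was lower, with a log2 fold change of -0.26 ± 0.08 (SE; edgeR adjusted p = 0.0359). That call was lost under 8 of the 15 alternatives: library totals only, both FPKM fits, the replicate block, and without TFCP2L1 replicate 1 or 3 or vector replicate 1 or 3 (adjusted p from 0.0623 to 0.205 in these). LRP1, the endocytic receptor that takes up complexes of activators with serpins, fell to 29.1 ± 1.23 FPKM in TFCP2L1 cells, against 39.4 ± 1.35 FPKM in vector cells (SD, n = 3; edgeR adjusted p = 0.000348). MRC2, a collagen receptor that binds the urokinase receptor, averaged 12.9 ± 1.01 FPKM in TFCP2L1 cells and 19.3 ± 0.0556 FPKM in vector cells (SD, n = 3) and fell, with an adjusted p of 7.22e-05 by edgeR. THBD, thrombomodulin, was in the list as a brake on the system and not as a protein that gathers or clears activators. THBD had 572, 457 and 646 reads in TFCP2L1 libraries, against 912, 934 and 959 in vector libraries. Its log2 fold change was -0.78 ± 0.12 (SE; edgeR adjusted p = 0.000518).

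**Figure D4:**
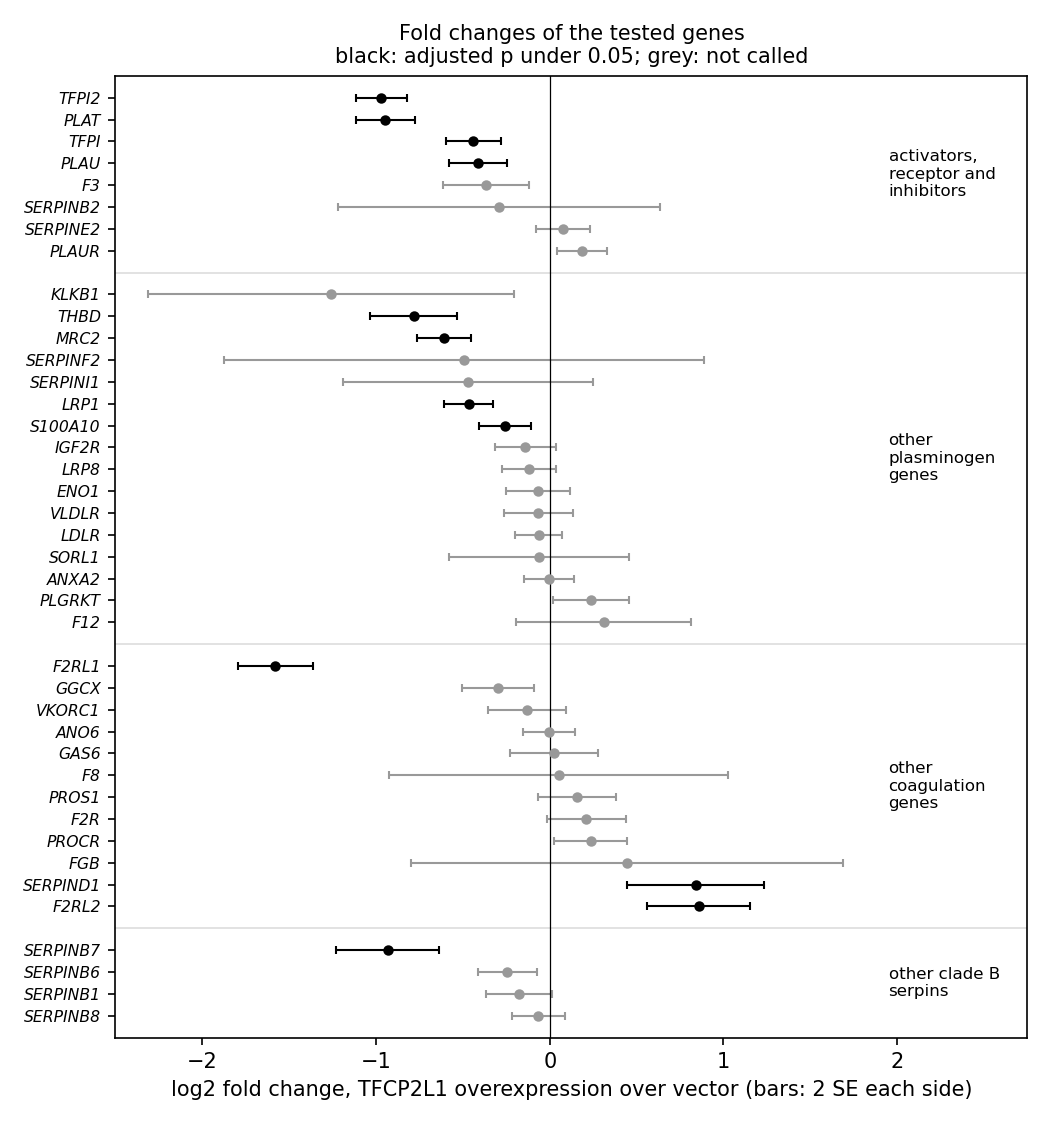
Log2 fold change of TFCP2L1 over vector cells (horizontal axis, edgeR; bars are 2 SE to either side) for the tested genes of the 8 and of the 3 surrounding lists. Black points passed an adjusted p of 0.05; TFPI2 and PLAT lie near -0.97 and -0.95, and F2RL1 lies lowest of the called genes shown, at -1.58.

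Of 25 other genes of coagulation and thrombin signalling, 17 had a row and 12 were tested. Of these, 2 rose and 1 fell by edgeR, with a median log2 fold change of 0.10. At an unadjusted p under 0.05, 3 were higher and 2 lower. DESeq2 and limma-voom each called 2 higher and 1 lower. Over all tested genes 4.68% were higher and 7.04% lower by edgeR, and 11.9% higher and 13.6% lower at the unadjusted p. The protease-activated receptors did not move together. F2RL1, the receptor cut by trypsin-like proteases and by the complex of tissue factor with factor VII, fell. It had 407, 377 and 349 reads in TFCP2L1 libraries, against 1160, 1054 and 1078 reads in vector libraries (log2 fold change -1.58 ± 0.11 SE; edgeR adjusted p = 8.37e-08). F2RL2, a thrombin receptor, rose, with 453, 418 and 563 reads in TFCP2L1 libraries, against 257, 241 and 272 in vector libraries (0.86 ± 0.15 SE; edgeR adjusted p = 0.00110). F2R, the main thrombin receptor, was at 5.06 ± 0.0844 FPKM in TFCP2L1 cells and 4.29 ± 0.543 FPKM in vector cells (SD, n = 3; edgeR adjusted p = 0.263). SERPIND1, heparin cofactor II, was higher in TFCP2L1 cells by 0.84 ± 0.20 (SE) on the log2 scale (edgeR adjusted p = 0.0103). SERPIND1 was not called once TFCP2L1 replicate 1 (adjusted p = 0.0596) or vector replicate 3 (adjusted p = 0.0619) was left out, which left 1 gene of the list higher. Without TFCP2L1 replicate 1, 2 genes of the list were lower.

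Among 12 other clade B serpins, 7 had a row and 4 were tested, of which 1 fell and 0 rose by edgeR. At an unadjusted p under 0.05, 2 were lower and 0 higher, and DESeq2 and limma-voom called 1 lower and 0 higher. The shares over all tested genes were 7.04% lower and 4.68% higher by edgeR, and 13.6% lower and 11.9% higher at the unadjusted p. SERPINB7, which lies in the same chromosome cluster as SERPINB2, fell, with 181, 183 and 206 reads in TFCP2L1 libraries, against 325, 384 and 348 in vector libraries (log2 fold change -0.93 ± 0.15 SE; edgeR adjusted p = 0.000535). SERPINB8, the other tested gene of the list in that cluster, was not called with all libraries (-0.07 ± 0.08 SE; edgeR adjusted p = 0.639). Without TFCP2L1 replicate 2, 2 of the 4 were called lower.

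For each of the 8 genes, the 2 genes with the most similar profile were found among 11694 genes with a mean of at least 2 CPM (reads scaled to library size), by Pearson's r of log2 CPM over the 6 libraries. TFPI2 was closest to the chemokine genes CXCL8 (r = 0.999) and CXCL1 (r = 0.998), which were at 264 and 254 CPM in TFCP2L1 cells and 653 and 647 CPM in vector cells. PLAT was closest to SAT1 and TGFBI (both r = 0.999), TFPI to PLCB4 and FKBP7 (both r = 0.998), and PLAU to ATP6V0D1 (r = 0.999) and OLFML2B (r = 0.996). PLAUR was closest to CXCL11 (r = 0.995) and KIFC1 (r = 0.993). F3 was closest to PHF7 and HS3ST3B1 (both r = 0.996), SERPINE2 to C2orf42 (r = 0.993) and EEF1AKMT2 (r = 0.988), and SERPINB2 to TCAF1 (r = 0.993) and NISCH (r = 0.984). With so few libraries high values are common: r was over 0.95 for 438 genes with TFPI2, 406 with PLAT and 10 with SERPINE2. All profiles share the same libraries.

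The labelled cell type was checked by its markers. Of 7 thyroid follicular markers 5 had a row, led by PAX8 with 17535 to 20399 reads in TFCP2L1 libraries and 19721 to 21516 in vector libraries, while TG had at most 56 reads and NKX2-1 and TSHR, the 2 without a row, were not analysed here. Of the 4 tested, 0 were called by edgeR (0 higher and 2 lower at an unadjusted p under 0.05), and the list summed to 470.4 to 559.7 CPM in TFCP2L1 libraries and 548 to 599.5 CPM in vector libraries. Markers of endothelium, a known source of PLAT and TFPI, summed to 3.58 to 5.35 CPM in TFCP2L1 libraries and 4.48 to 5.55 CPM in vector libraries; 6 of 8 had a row, 2 were tested and 0 called (0 at an unadjusted p under 0.05), and CDH5 and CLDN5 were not analysed here. Fibroblast markers summed to 7.62 to 8.63 CPM in TFCP2L1 libraries and 9.67 to 10.6 CPM in vector libraries. Of 8, 7 had a row, 3 were tested and 0 called (1 lower at an unadjusted p under 0.05). The tested COL1A1 had 128 to 161 reads in TFCP2L1 libraries and 180 to 203 in vector libraries. PDGFRB had 110 to 138 and 134 to 149, and LUM 23 to 50 and 35 to 75, in the same order. PDGFRA and THY1 had at most 11 reads in a library, COL1A2 and COL3A1 at most 1, and DCN was not analysed here. Monocyte and macrophage markers summed to 98.6 to 124 CPM in TFCP2L1 libraries and 65.5 to 78.4 CPM in vector libraries; 7 of 8 had a row and 1 of 3 tested rose, CD68, a lysosomal protein, which made up nearly all of that sum. The other 2 tested, CSF1R and ITGAM, had log2 fold changes of -0.29 and -0.25 and were not called by edgeR (adjusted p = 0.622 and 0.829). CD14 had 5, 8 and 4 reads in TFCP2L1 libraries, against 16, 13 and 7 in vector libraries, and LYZ 0, 4 and 0 reads in TFCP2L1 libraries, against 5, 3 and 6 in vector libraries. DESeq2 and limma-voom called 0 genes of the thyroid, endothelial and fibroblast lists and 1 higher of the monocyte list. PTPRC, the leukocyte common antigen, had at most 7 reads in a library, and the part of these markers in the results above was not tested. In bulk RNA, fewer cells with a transcript and less of it per cell cannot be told apart.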

How the data were processed

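TRIzol was used for total RNA and a VAHTS Universal kit for the libraries, per the labels' protocols. Per the submitters' processing notes, the tools included HTSeq, HISAT2 and fastp (no versions) and the build was GRCh38.p13. The authors deposited raw read counts per gene and FPKM values for the same genes; count divided by FPKM and library total gave 1 length per gene within 0.000115%, so FPKM carries library-total scaling only.

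Counts were tested with edgeR 4.0.16 in R 4.3.3: filterByExpr kept 14431 of 21173 genes, with TMM scaling and robust quasi-likelihood F-tests over all 6 libraries, two-sided, adjusted over all tested genes. TMM factors were 0.985 to 1.02. SE is the log2 fold change over the root of F. CPM uses TMM. Levels between genes use deposited FPKM. Alternatives included DESeq2 1.42.0 and limma 3.58.1. Positions come from GENCODE v29 on GRCh38. Data were simulated for 14238 genes, with only 50 genes changed at each fold. Of these, 28% of 1.3-fold, 62% of 1.5-fold, 84% of 2-fold and 94% of 4-fold changes were recovered. Of the simulated calls 11.8%, or 18 genes, were false. Many more genes were called in the real data, 1692 of 14431, so these rates cannot be carried over to the real calls. Replicates differed by more than sampling noise (chi-square per gene 7.76 to 45.2).

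The genes, lists and tests were chosen with earlier results of these data known. Named genes were the 8, TFCP2L1, called genes of each list up to 6, 6 preset genes of the lists, and the closest profiles. Marker genes and SERPINB8 were named after their values were seen. Exact permutation of 3 against 3 libraries cannot go below p = 0.1 and was not used. A gene of the plasminogen list and a thyroid marker are not reported here and were left out of the list counts.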

Additional observations from a re-analysis of the deposited data

How the results depend on the processing

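The calls of PLAT, TFPI and TFPI2 held under all 15 alternatives; PLAU and F3 changed under the settings named above, and 3 to 5 of the 8 genes were called lower. With the replicate block, 331 genes were called higher and 665 lower, against 676 and 1016; 4 of the 8 genes were still called. Deviations of libraries with the same number correlated at 0.25, -0.36 and -0.30, so libraries with the same number did not consistently deviate together. These values cannot settle whether the samples were handled in pairs. TFCP2L1 replicate 3 and vector replicate 2 correlated at 0.50, and TFCP2L1 replicate 2 and vector replicate 3 at 0.34. A fit with that other matching was not run. Leaving out 1 library gave 294 to 763 genes higher and 654 to 1108 lower, 1 to 3 coagulation genes higher and 1 to 2 lower, and 1 to 2 clade B serpins lower. With no filter, 2 coagulation genes were lower. Chosen after seeing the data, exon lengths of GENCODE v29 raised PLAU over SERPINE2 to 87.1 in TFCP2L1 cells and 122 in vector cells, against 26.9 and 37.6, and made 1 neighbouring pair of levels overlap in vector cells. These lengths enter by division, so folds between groups are unaffected. Depth limited SERPINB2 most, and it had no value under the filter of at least 1 CPM in 3 libraries.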

Other observations

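The 4 endothelial markers with a row but too few reads to be tested differed in direction, and are given here after their values were seen. TEK had 24, 10 and 15 reads in TFCP2L1 libraries, against 2, 2 and 6 in vector libraries. KDR had 6, 1 and 0 reads in TFCP2L1 libraries, against 12, 9 and 3 in vector libraries. VWF had 2, 0 and 0 reads in TFCP2L1 libraries, against 0, 0 and 6 in vector libraries, and EMCN had 0 reads in TFCP2L1 libraries, against 0, 0 and 1 in vector libraries.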
